A study of Mus musculus with 12 samples.

Results

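In back skin, 6 genes that specify, guide and maintain the melanocyte, the pigment cell of the hair follicle, were followed, namely the growth factor gene Kitl, the receptor genes Kit and Ednrb, and the transcription factor genes Mitf, Sox10 and Pax3. A probe belonged to the set when its gene name in the scanner files equalled one of these symbols, which gave 11 probes for 6 of the 27373 gene names among the 41174 probes of the array. Male C57BL/6J mice, 8 weeks old and shaved on the back, received 200 µL a day of 3% minoxidil (MXD), of 10% cell extract of the cactus Notocactus ottonis (N-CE), or of the vehicle control (VC), which was propylene glycol, ethanol and water at 5:3:2. Whole skin was taken after 1 week (1W), 2 weeks (2W) and 3 weeks (3W). The RNA of 6 mice was pooled in each group, so that each treatment and week was represented by 1 pool and the spread between mice was not measured. Treated and VC pools of a week were hybridised together on 2 arrays, with the dyes exchanged, giving 12 arrays in 6 comparisons. The MXD and N-CE comparisons of a week shared their VC pool. Of 11 listed genes of epidermis and dermis, keratins and collagens among them, 9 to 11 per comparison were above background with a ratio on both arrays. A gene could miss this count for lack of a ratio alone, after outlier spots were left out. All 17 genes of a melanin list were above background in at least 1 channel.

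Melanocytes of the follicle descend from the neural crest and from stem cells of the bulge, and they make pigment while the hair is in its growth phase, anagen. MITF is the transcription factor that commits cells to this lineage and switches on the genes of melanin synthesis, and SOX10 and PAX3 act together on its promoter. KIT, a receptor tyrosine kinase, answers to KIT ligand from the papilla and the epidermis, and EDNRB answers to endothelins, both needed for melanoblasts to migrate and survive. None of the 6 genes is particular to melanocytes. Kit and Mitf are also used in mast cells, Sox10 in Schwann cells, Pax3 in muscle precursors, Ednrb in vessels and Kitl in the dermal papilla.

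The most downstream of the 3 Mitf start sites in the RefSeq table lies where transcription of the melanocyte form of Mitf is known to begin, and the promoters of Tyr, Tyrp1 and Dct, the 3 enzymes of melanin synthesis, are textbook targets of MITF. They are shown because the report turns on how Mitf and these target genes moved side by side. Each line gives the 250 bases before the start site in build GRCm38.p6 from RefSeq, 5′ to 3′ on the strand of the gene. Capitals mark every match, on either strand, to CATGTG (an E-box, the core of the M-box that MITF binds), CACGTG (the symmetric E-box), ACAAAG (a SOX-type motif), CTTTGAT (a LEF/TCF-type motif) or TGACGTCA (the cyclic AMP response element). No 2 of these motifs shared letters in the 4 windows printed.
Mitf, chr6:97991533-97991782, plus strand: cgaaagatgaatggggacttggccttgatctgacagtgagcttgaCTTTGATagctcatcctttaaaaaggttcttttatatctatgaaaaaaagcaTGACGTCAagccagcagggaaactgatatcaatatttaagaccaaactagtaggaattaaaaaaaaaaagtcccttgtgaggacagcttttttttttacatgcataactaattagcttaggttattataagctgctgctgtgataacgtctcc
Tyr, chr7:87493513-87493762, minus strand: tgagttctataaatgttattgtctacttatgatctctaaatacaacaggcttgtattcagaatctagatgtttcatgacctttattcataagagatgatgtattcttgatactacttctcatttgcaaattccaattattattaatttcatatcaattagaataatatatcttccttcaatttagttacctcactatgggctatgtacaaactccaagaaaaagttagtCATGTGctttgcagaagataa
Tyrp1, chr4:80833963-80834212, plus strand: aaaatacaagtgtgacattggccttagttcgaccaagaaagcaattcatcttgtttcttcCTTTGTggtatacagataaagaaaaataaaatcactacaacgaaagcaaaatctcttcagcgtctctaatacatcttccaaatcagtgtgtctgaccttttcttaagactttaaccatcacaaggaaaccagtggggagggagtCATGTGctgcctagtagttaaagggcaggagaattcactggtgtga
Dct, chr14:118052247-118052496, minus strand: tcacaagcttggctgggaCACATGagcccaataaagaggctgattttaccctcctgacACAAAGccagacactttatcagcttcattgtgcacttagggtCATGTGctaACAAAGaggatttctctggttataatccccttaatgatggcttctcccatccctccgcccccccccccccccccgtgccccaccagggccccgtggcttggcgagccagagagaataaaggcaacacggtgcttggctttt

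The Mitf window held 1 match to CTTTGAT, 205 bases before the start, and 1 match to TGACGTCA, 153 bases before the start. Across all 32851 windows of the same length outside chromosome 18, 3.21% held the first motif and 1.55% the second. CATGTG stood 21 bases before the start of Tyr, 46 bases before that of Tyrp1, and 232 and 150 bases before that of Dct. This motif was present in 12.3% of all windows, CACGTG in 6.02% and ACAAAG in 16.5%. Of the 17 genes of the melanin list, which holds the enzymes, transporters and structural proteins of the melanosome, 12 were in the table and 8 of these had CATGTG in at least 1 window. Of the 6 lineage regulators, 4 were in the table, in 7 windows, and none of these windows held either E-box or the SOX-type motif. A match describes letters only and is not a measured binding site.

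Values are given as follows. A log2 ratio is the treated signal over the VC signal on 1 array, and a log2 fold is its mean over the 2 arrays of a comparison, given with the SD of those 2 arrays, which is technical. A probe was called when the error model of the scanner software gave P below 0.01 on each of its 2 arrays, with equal sign, and the mean fold lay above 1.5 or below 0.75. Where a gene had several probes, the one of highest mean signal stood for it. No test of a treatment at a single week was possible with 1 pool per group. All 6 regulators passed the filter on low signal in all 6 comparisons, and 4 of the 11 probes, named below, did not stand for a gene because they were dim. The fifth such probe was the second, equally bright probe of Ednrb.

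Across all probes tested, the share called higher was 0.685% in MXD 1W, 4.04% in MXD 2W, 0.144% in MXD 3W, 0.292% in N-CE 1W, 0.0682% in N-CE 2W and 0.151% in N-CE 3W. The share called lower was 0.765% in MXD 1W, 5.82% in MXD 2W, 0.161% in MXD 3W, 1.49% in N-CE 1W, 0.0511% in N-CE 2W and 0.139% in N-CE 3W. Against these shares, 4 of the 6 regulators, Kit, Ednrb, Mitf and Pax3, rose in MXD 2W. Kitl was called higher in MXD 3W on its dim probe alone, which does not stand for the gene. None of the 6 was called in MXD 1W or in any week of N-CE, and none was called lower anywhere. The list of epidermis and dermis had 10 of 11 genes lower in MXD 2W, 6 of them called, at a median log2 fold of -0.86, and none called in the other comparisons. The part of this shift in the values of the regulators was not tested. The 2 arrays of a comparison correlated across probes above background with r from -0.17 in N-CE 2W to 0.71 in MXD 2W, so that small values in N-CE 2W rest on arrays that did not repeat each other.

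Kitl encodes KIT ligand, the growth factor of the melanocyte. Its bright probe, A_51_P133936, lies at chr10:99562481-99562540 in build mm9, as the files give it, and was printed at 10 spots. With the treated pool in Cy5 and then in Cy3, it read log2 ratios of 0.22 and 0.40 in MXD 1W, 0.18 and 0.33 in MXD 2W, and 0.50 and 0.51 in MXD 3W. All 6 MXD arrays were above 0, and the log2 fold was 0.51 ± 0.002 (SD, n = 2 arrays) in MXD 3W, below the fold needed for a call. In N-CE it read -0.07 and 0.18 at 1W, then 0.11 and 0.27 at 2W, and finally 0.22 and -0.07 at 3W, with signs that differed between arrays at 1W and 3W. The dim probe A_52_P572571, at chr10:99539380-99539439, lies in coding sequence and gave log2 ratios of 1.08 and 0.92 in MXD 3W, a log2 fold of 1.00 ± 0.12 (SD, n = 2 arrays). Its VC signal was above background on 1 of 2 arrays there, and after another background correction (normexp with loess) the log2 fold was 0.31. The same probe read 0.77 and 0.68 in N-CE 3W without passing the rule, and 0.34 and 0.72 in MXD 1W. Its arrays differed in sign in MXD 2W, at -0.28 and 0.96, in N-CE 1W, at -0.42 and 0.55, and in N-CE 2W, at -0.27 and 0.07. It is printed here because the call of Kitl rests on it alone.
Kitl probe, coding: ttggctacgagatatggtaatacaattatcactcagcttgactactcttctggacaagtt

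Kit encodes the receptor for this ligand, and its probe, A_51_P355906, at chr5:76052287-76052346, was printed at 10 spots. It gave log2 ratios of 1.55 and 0.81 in MXD 2W, the largest log2 fold among the 4 regulators called, at 1.18 ± 0.53 (SD, n = 2 arrays). In MXD 1W it read 0.25 and 0.12, and in MXD 3W 0.33 and 0.06, so that the 2W arrays stood above those of both other weeks. In N-CE 1W both arrays were below 0, at -0.29 and -0.40. In N-CE 2W they read 0.65 and -0.03 and in N-CE 3W 0.27 and 0.20, none of which passed the rule. Mast cells, which also use Kit, showed the opposite direction in MXD 2W: all 8 of the 10 mast cell markers above background were lower, with a median log2 fold of -0.59, and Cpa3 and Cma1, both mast cell proteases, were called lower at -0.84 and -0.91. The summed level of the mast list there was 13.07 to 13.32 on the log2 intensity scale over the MXD arrays and 13.43 to 14.00 over the VC arrays. In MXD 1W 7 of 8 mast cell markers were higher, at a median of 0.24, the same direction as Kit, and 1 was called, Hdc, the enzyme that makes histamine, at 0.76. In N-CE 1W, where Kit was below 0, all 8 were higher at a median of 0.43 with none called. Tpsab1, a mast cell tryptase, was never above background.

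Ednrb encodes the endothelin receptor of melanoblasts and was measured by 2 probes of similar brightness. The brighter, A_52_P577662, at chr14:104214484-104214543, read 0.42 and 0.54 in MXD 1W, 0.67 and 0.60 in MXD 2W, and 0.30 and 0.19 in MXD 3W. The other, A_51_P262964, at chr14:104216247-104216306, read 0.43 and 0.75, then 0.62 and 1.22, then 0.17 and 0.42. Both probes were called higher in MXD 2W, at log2 folds of 0.64 ± 0.05 and 0.92 ± 0.42 (SD, n = 2 arrays), and all 12 values of the MXD arrays were above 0. In N-CE 1W the first probe read -0.30 and -0.11 and the other -0.47 and -0.48, below 0 on both arrays without a call. The probes parted in N-CE 3W, where the log2 fold was -0.06 on the first and 0.33 on the other. Endothelial markers, from cells that also carry Ednrb, moved the other way in MXD 2W, with all 8 lower at a median log2 fold of -0.49 and 3 called lower, Tek, Emcn and Cldn5. Their summed level was 12.31 to 12.43 in MXD and 12.72 to 12.99 in VC. In MXD 1W 3 of 8 were higher, at a median of -0.04, and in N-CE 1W 7 of 8, at 0.32, with none called in either.

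Mitf, the regulator that switches on the melanin genes, was read by A_51_P364274 at chr6:97968386-97968445 in build mm9, with 10 spots. It gave log2 ratios of 0.42 and 0.28 in MXD 1W, 0.75 and 1.08 in MXD 2W, and -0.04 and -0.19 in MXD 3W. The log2 fold of 0.92 ± 0.23 (SD, n = 2 arrays) in MXD 2W was called, and the value had passed below 0 on both arrays a week later. In N-CE it read -0.21 and -0.26 at 1W, then 0.21 and -0.001 at 2W, and finally 0.30 and 0.02 at 3W, with no call. A dim second probe, A_52_P100140, covers a stretch from chr6:97956187 to chr6:97960443 that spans an intron, and its bases encode part of the helix-loop-helix domain shared by the forms of Mitf. It was above background in both groups in 4 of 6 comparisons and read 1.26 and 0.47 in MXD 2W, the same direction as the bright probe, without passing the rule. The bright probe lies downstream of the dim one, and neither was shown to read the melanocyte form of Mitf apart from the other forms. Probe positions are in build mm9 and the promoter windows in GRCm38.p6, so the position of a probe cannot be set directly against the Mitf window. Macrophage markers, from another cell type that uses Mitf, were all lower in MXD 2W (7 of 7, median log2 fold -0.74, 4 called lower), with a summed level of 14.25 to 14.49 in MXD and 15.07 to 15.37 in VC. In MXD 1W 6 of 7 were higher, at a median of 0.33, the same direction as Mitf, and in N-CE 1W 7 of 7, at 0.19, with none called in either.
Mitf probe, coding: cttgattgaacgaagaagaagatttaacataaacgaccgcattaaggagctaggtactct

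Sox10 encodes a transcription factor of the neural crest that activates Mitf. Its probe A_51_P346704, at chr15:78985505-78985564, is a single spot and repeated poorly when the dyes were exchanged. In MXD it read -0.03 and -0.38 at 1W, then 0.85 and -0.06 at 2W, and finally 0.43 and -0.11 at 3W. In N-CE it read 0.34 and -0.05 at 1W, then 0.71 and -0.28 at 2W, and finally 0.40 and 3.23 at 3W. In 5 of 6 comparisons the array with the treated pool in Cy5 gave the higher ratio, by 0.99 at most. The exception was N-CE 3W, where the treated channel of 1 array had a log2 processed signal of 12.77 while the other 23 channels of the probe lay between 8.75 and 10.46. The log2 fold of 1.81 ± 2.00 (SD, n = 2 arrays) there is thus smaller than its SD, and without that array it was 0.40. Sox10 was called in no comparison, and its second probe, A_52_P192625, at chr15:78986883-78986942, was below background in all channels. Among Schwann cell markers, from the other cells of skin that carry Sox10, 8 of the 10 above background were lower in MXD 2W. The median log2 fold of the 10 was -0.60, and Pmp22 and Ncmap, genes of myelinating Schwann cells, were among those called lower. Egr2 and S100b were higher there, at 0.37 and 0.02, without a call. The summed level of the list was 14.44 to 14.54 in MXD and 14.59 to 14.95 in VC, and Gfap was never above background. In MXD 1W 9 of 10 markers were lower, at a median of -0.15 with none called. In N-CE 1W 9 of 10 were higher, at 0.29 with 1 called. The log2 folds of Sox10 there were -0.21 ± 0.25 and 0.14 ± 0.27 (SD, n = 2 arrays), and its arrays differed in sign in N-CE 1W. In MXD 2W the log2 fold of Sox10 was 0.40 ± 0.65 (SD, n = 2 arrays), above 0 while the Schwann median was below it.

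Pax3, which acts with SOX10 on the Mitf promoter, was read by A_51_P315734 at chr1:78099476-78099535, printed at 10 spots. Its signal was the lowest among the 6 probes that stood for a gene, though above background in all 24 channels. It read 0.08 and -0.07 in MXD 1W, 1.00 and 0.80 in MXD 2W, and 0.51 and 0.46 in MXD 3W, and the log2 fold of 0.90 ± 0.14 (SD, n = 2 arrays) in MXD 2W was called. In N-CE it read -0.43 and -0.62 at 1W, then 0.69 and 0.52 at 2W, and finally 0.51 and 0.48 at 3W. These values repeated between arrays without passing the rule, and both arrays of 1W lay below those of 2W and 3W. After normexp with loess the log2 folds of Pax3 were smaller, 0.36 in MXD 2W and -0.19 in N-CE 1W. A further probe named Pax3, A_52_P169747, at chr1:78180183-78180242, was below background in all channels. Markers of muscle precursors, which also use Pax3, were lower in MXD 2W in 6 of 6 cases above background, at a median log2 fold of -1.41 with 4 called lower, Myog, Myf6, Cdh15 and Des, and their summed level was 10.82 to 10.86 in MXD and 11.95 to 12.39 in VC. In MXD 1W 3 of 6 were higher, at a median of -0.26 with 1 called in each direction, and in N-CE 1W 6 of 6, at 0.24 with none called. Myf5 was never above background, and Pax7 in MXD 2W was above it on 1 VC array and on no treated array. Muscle fibre markers were lower in MXD 2W too, with 10 of 10 called lower at a median log2 fold of -1.46. A fall of precursors apart from fibres was not tested.

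**Figure D1:**
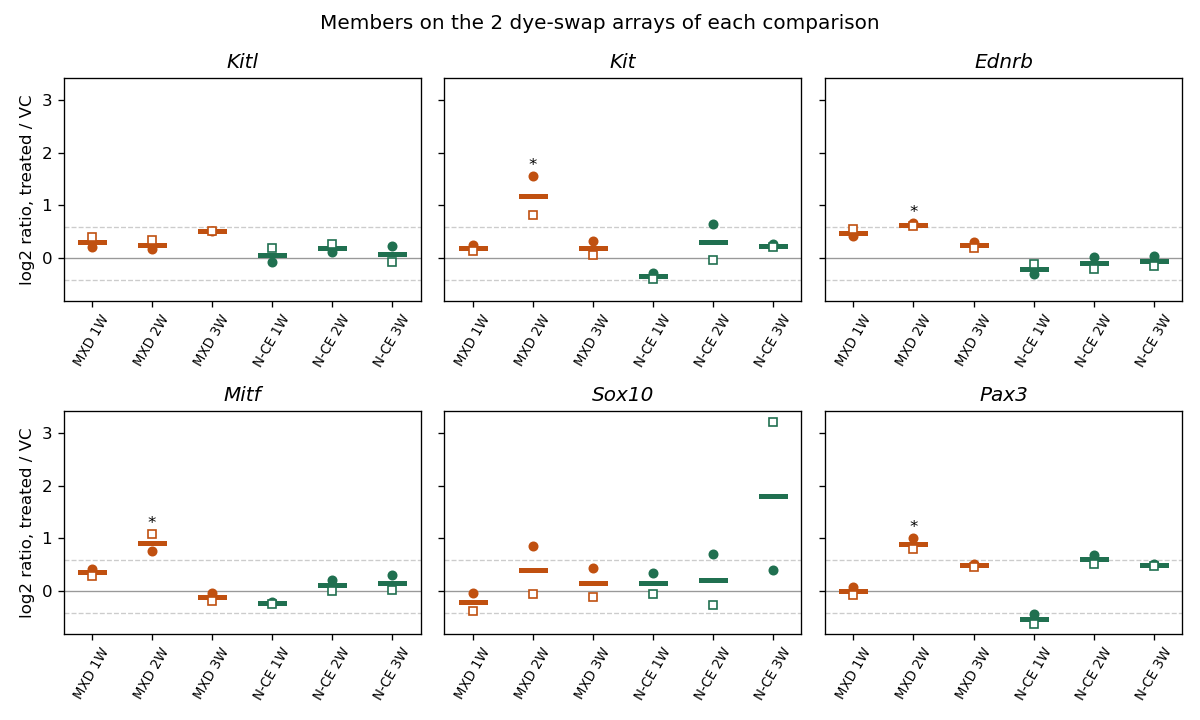
Log2 ratio of treated over VC (vertical axis) for the probe that stands for each regulator, in the 6 comparisons (horizontal axis; MXD in orange, N-CE in green). Filled circles are arrays with the treated pool in Cy5, open squares those with it in Cy3, bars their mean, dashed lines the folds 1.5 and 0.75, and a star a call. Kit, Ednrb, Mitf and Pax3 are called in MXD 2W, and the 2 arrays of Sox10 in N-CE 3W read 0.40 and 3.23.

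Levels in the single pools showed how far these ratios stood beyond repeated readings of the same RNA. The VC pool of each week was hybridised on 4 arrays, and its level was taken per channel after background correction and scaling between arrays, in log2 intensity. For Kit the 4 VC readings of 2W ran from 8.52 to 9.21, and both MXD readings, 9.88 and 10.01, lay above them. For Mitf the 2W readings of VC ran from 10.10 to 10.32 and those of MXD from 10.93 to 11.30. For Ednrb they ran from 9.95 to 10.43 in VC and from 10.87 to 10.96 in MXD, and for Pax3 from 6.53 to 6.64 and from 6.90 to 7.05. The readings of Kitl, at most 9.57 in VC and at least 9.64 in MXD, did not overlap either. Both MXD readings thus lay above all 4 VC readings for 5 of the 6 regulators at 2W, as they did for 16.7% of all probes. The same held at 3W for 4 of the 6, against 7.5% of all probes, namely Kit, at 9.69 to 9.70 over at most 9.65 in VC, Kitl, at 10.00 to 10.06 over 9.88, Ednrb, at 10.89 to 10.91 over 10.73, and Pax3, at 6.80 to 6.82 over 6.66. At 1W it held for 3 of the 6, Mitf, Kitl and Ednrb, against 11.5%, while both MXD readings of Sox10 lay below all VC readings, as for 14.0% of all probes. For Sox10 the VC readings of 2W ran from 8.33 to 9.21 and the MXD readings, 9.13 and 9.36, overlapped them.

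At 1W the N-CE pool read below every VC reading for Mitf, at 9.80 to 9.90 against 9.96 to 10.18, for Kit, at 8.64 to 8.65 against 8.71 to 9.002, and for Pax3, at 6.70 to 6.72 against 6.83 to 6.93. These were 3 of the 6 regulators, and 12.4% of all probes behaved so. At 2W the N-CE readings of Kitl and Pax3 lay above all VC readings, as for 5.0% of all probes, and at 3W those of Pax3 did, as for 6.43%. No regulator lay above all VC readings in N-CE 1W, as 10.5% of all probes did, and none lay below them all in MXD 2W, MXD 3W, N-CE 2W or N-CE 3W, as 16.0%, 5.74%, 6.91% and 9.16% of all probes did. For Ednrb the N-CE readings, 9.86 and 9.98, overlapped the VC readings of 9.92 to 10.27. The VC level itself differed between weeks. Kit read 8.71 to 9.002 at 1W and 9.22 to 9.65 at 3W in VC, ranges that did not overlap, while Mitf read 9.96 to 10.18 and 10.13 to 10.30, which did. All arrays of 1 week lie on 1 slide, so that week and slide cannot be told apart in these levels. In pooled whole skin, fewer cells of a type and less RNA per cell cannot be told apart either.

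**Figure D2:**
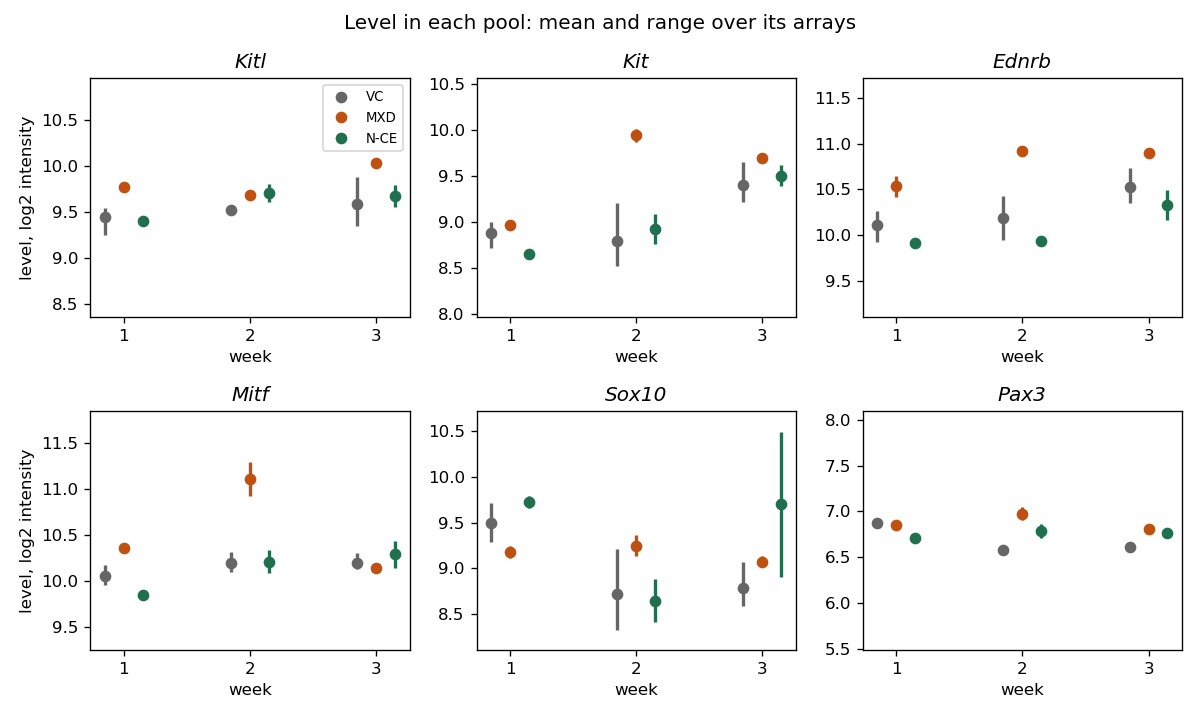
Level of each regulator in log2 intensity (vertical axis, 2.6 units in each panel, levels not comparable between genes) by week (horizontal axis) in the VC, MXD and N-CE pools. Points are means and lines the range over 4 arrays for VC and 2 arrays for each treated pool. The MXD pool stands above the VC range for Mitf, Kitl and Ednrb at 1W, for all but Sox10 at 2W, and for Kit, Kitl, Ednrb and Pax3 at 3W.

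The melanin list gave the pigment side of the comparison. The median log2 fold of the 6 regulators was 0.25 ± 0.02, 0.77 ± 0.07 and 0.22 ± 0.18 in MXD at 1W, 2W and 3W (SD of the medians of the 2 arrays), and that of the melanin list was 0.60 ± 0.02, 1.14 ± 0.05 and 0.65 ± 0.05. Over all gene names above background the medians of these comparisons were -0.01, 0.03 and 0.002. In MXD 2W 6 of 6 regulators and 14 of 17 melanin genes were above 0, and 11 melanin genes were called higher, among them Tyrp1 at 1.38 ± 0.11, Dct at 1.27 ± 0.39 and Pmel, the fibril protein of the melanosome, at 1.04 ± 0.10 (SD, n = 2 arrays). Tyr, tyrosinase, was called there with VC not above background on either array, which leaves a bound of at least 1.29-fold higher. In MXD 1W and 3W no regulator of the 6 was called on the probe that stands for it, while 5 and 8 melanin genes were called higher, Tyrp1, Dct, Mlana, Oca2 and Slc24a5 in both weeks.

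In N-CE 1W the lists parted. The melanin list had a median log2 fold of -1.81 ± 0.26, with 10 of the 15 genes above background called lower, while the 6 regulators had a median of -0.22 ± 0.05 with none called. Of those 15, 4 were above 0, namely Rab38 at 0.07, Rab32 at 0.20, Rab27a at 0.13 and Myo5a at 0.05. Oca2, an ion channel of the melanosome, fell by 3.04 on the log2 scale, Trpm1, a channel of the same cells, fell by 2.82, Tyrp1 fell by 2.02 and Dct fell by 1.79, whereas the lowest regulator, Pax3, stood at -0.53 ± 0.13 (SD, n = 2 arrays). The difference between the list medians, melanin minus regulators, was -1.31 and -1.75 on the 2 arrays, and its mean over both was -0.68 after normexp with loess. In the other 5 comparisons the mean of that difference lay between 0.17 and 0.36, though in N-CE 2W it was -0.08 and 0.42 on the 2 arrays. In N-CE 2W and 3W the regulators had medians of 0.20 ± 0.32 and 0.20 ± 0.12 and the melanin list 0.44 ± 0.04 and 0.42 ± 0.07, with Oca2 and Trpm1 called higher at 2W and Mlana at 3W.

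**Figure D3:**
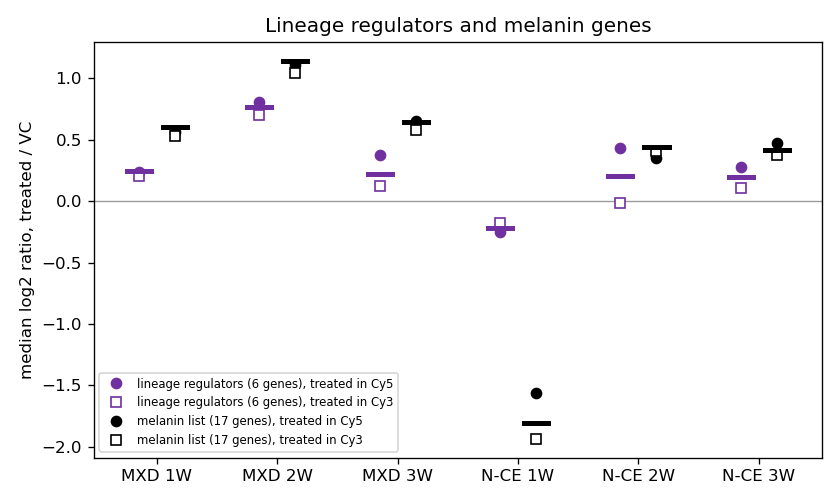
Median log2 ratio of treated over VC (vertical axis) of the 6 lineage regulators (purple) and the 17 genes of the melanin list (black) in each comparison (horizontal axis). Circles and squares are the medians on the arrays with the treated pool in Cy5 and Cy3, and bars the median of the mean folds. In N-CE 1W the melanin list lies at -1.81 and the regulators at -0.22.

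Hair matrix and shaft genes, whose products build the fibre into which pigment is passed, were called in the same direction as the melanin list in 3 comparisons. All 13 on the array were called higher in MXD 2W, at a median log2 fold of 1.26, and all 13 lower in N-CE 1W, at -2.37. In MXD 1W all 13 were above 0, at a median of 0.61, and 4 were called higher, the hair keratin genes Krt33a, Krt33b, Krt34 and Krt86. No matrix gene was called in MXD 3W, N-CE 2W or N-CE 3W, at medians of 0.24, 0.32 and 0.10. In those comparisons 8, 2 and 1 melanin genes were called higher. Dermal papilla markers, from the cells that make KIT ligand, were mixed. In MXD 2W 9 of 11 above background were higher, at a median of 0.28, and Wif1 alone was called, at 1.06. Fgf7 and Hey1 were lower there, at -0.77 and -0.33. In N-CE 1W 7 of 10 were lower and 3 higher, at a median of -0.33. Wif1 was called lower there at -1.24, as was Corin, with a bound of at least 1.5-fold lower. With normexp and loess the 2 medians were 0.07 and -0.14. The part of a change in the number or stage of growing follicles in the values of the regulators was not tested.

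**Figure D4:**
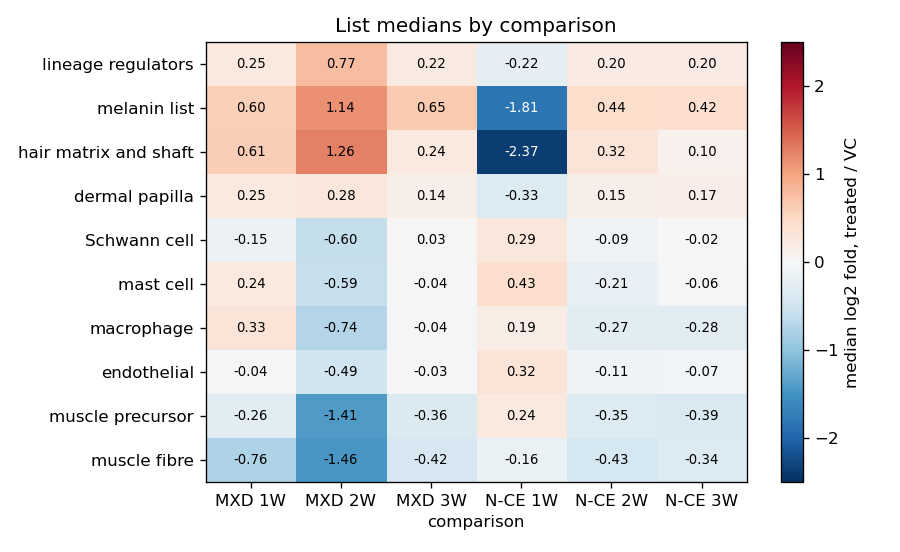
Median log2 fold of treated over VC (colour and printed value) for each gene list (rows) in the 6 comparisons (columns). In MXD 2W the lineage regulators, at 0.77, the melanin list and the hair matrix list are above 0 while the Schwann cell, mast cell, macrophage, endothelial and muscle lists are below 0.

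Of 15 other ligands and receptors of the melanocyte on the array, 14 were above background in MXD 2W, and 2 were called higher, the endothelin genes Edn1 at 0.89 ± 0.11 and Edn2 at 1.1 ± 0.08 (SD, n = 2 arrays). Edn2 was the single one called in N-CE 1W, lower at -1.40 ± 0.16, and none was called in the other 4 comparisons. Edn3, the endothelin of melanoblast development, read 0.44 and 0.75 in MXD 2W and -0.69 and -1.05 in N-CE 1W with no call. Its VC signal in MXD 2W and its treated signal in N-CE 1W were above background on neither array. This leaves bounds of at least 1.081-fold higher and 1.065-fold lower, and with normexp and loess the log2 folds were 0.11 and -0.09. Asip, the agouti signal that turns pigment yellow, was never above background.

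Among 19 further transcription factors of the lineage and of the family of Mitf, 17 were above background in MXD 2W, with 4 called higher and 2 lower. Lef1, which carries the WNT signal to the Mitf promoter, rose by 1.47 ± 0.08 there and stood at -1.93 ± 0.02 in N-CE 1W, called lower (SD, n = 2 arrays). Sox9 rose by 1.02 in MXD 2W and was called lower at -0.79 in N-CE 1W. Sox5 and Tfap2a rose by 0.95 and 0.97 in MXD 2W, and Zeb2 and Irf4 were called lower there at -0.89 and -1.38. Tfec, of the family of Mitf, was called lower in N-CE 3W at -0.92 ± 0.06 (SD, n = 2 arrays). With normexp and loess its log2 fold there was -0.37. Of 10 MITF targets outside melanin synthesis, 9 were above background in MXD 2W and 1 was called, Gpnmb, a melanosome glycoprotein, at 0.93 ± 0.32.

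Taking the 3 weekly log2 folds of a treatment as if they were replicates, limma called 0% of probes changed over the weeks in MXD, in N-CE, or in the difference between them at an adjusted p below 0.05, with 3098, 1490 and 2021 probes at an unadjusted p below 0.05. In MXD the mean over the weeks was 0.45 ± 0.10 (SE) for Ednrb and 0.36 ± 0.07 for Kitl on the probes that stand for them, with a limma adjusted p of 0.63 for each. The mean was 0.52 ± 0.28 for Kit, 0.39 ± 0.25 for Mitf and 0.46 ± 0.22 for Pax3 (SE, limma). In N-CE the means of Mitf and Kit were 0.01 ± 0.11 and 0.07 ± 0.18 (SE, limma). On the probes that stand for the genes, the difference MXD minus N-CE was 0.57 ± 0.12 for Ednrb, with a limma adjusted p of 0.75. For Sox10 it was -0.61 ± 0.45, which includes the single outlying array of N-CE 3W described above. For Mitf it was 0.38 ± 0.27 (SE), with a limma adjusted p of 0.76. The other probe of Ednrb gave 0.66 ± 0.29 and the dim probe of Mitf 0.63 ± 0.11 (SE), each with a limma adjusted p of 0.75. That dim probe was above background in neither group in MXD 3W and in N-CE 1W, both of which enter its value. Weeks are not replicates of a condition, so these errors hold the change over time as well.

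The genes whose 12 log2 ratios ran most like those of each regulator were taken from 2873 genes above background in all channels and called at least once, as a description over arrays that share VC pools and slides. For Kit they were Tmem180, Acot7 and Smox, with r of 0.99 each. For Mitf they were Bmp2k, Ptpn3 and a transcript listed as AK034700, with r of 0.96, 0.96 and 0.95, and for Pax3 Ifitm10, TC1646491 and Rad54l, with r from 0.95 to 0.96. Ednrb ran most like Cdh6, Lce3c and Krtap3-2, with r from 0.86 to 0.88. Kitl reached r of 0.67 with Aldh1a3, 0.65 with Fabp7 and 0.65 with Krtap19-4. The r of 0.76 between Sox10 and Tshr includes the single array of N-CE 3W described above, as do those with TC1773204 and Paqr9.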

How the data were processed

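The authors deposited scanner tables of 2-colour mouse 4x44K arrays with Cy3 and Cy5 intensity, background-subtracted and dye-normalised by Agilent Feature Extraction (12.0.3.1 per the file headers, 11.0.1.1 in the submitters' processing notes), a log10 ratio of Cy5 over Cy3 and its error-model p-value. Here ratios were turned to treated over VC on the log2 scale, control and outlier spots were left out, spots of a probe were averaged, and means were taken over 2 arrays. A group was measured when well above background on at least 1 array. Bounds were set against the dimmest probes well above background. Levels used normexp (offset 50), loess and Aquantile in limma 3.58.1 under R 4.3.3, and weekly folds were fitted with limma across all probes. Between 57.0% and 69.6% of transcript spots were above background per channel, and the number of arrays limits the precision. The call rule and the limma fit were tested on simulated data. The regulators and lists were chosen with earlier results of these data known. Genes named were every regulator probe, some of the list genes called or largest in change, and the 3 genes most like each regulator by Pearson r. Gene names are those of the array design. Alternatives covered the call thresholds, background correction, the deposited value table, single arrays, probe choice, centring, dim-probe filters, weeks left out and the slide as a random block.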

Additional observations from a re-analysis of the deposited data

Results flagged for a closer look

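Several values had opposite signs in 2 comparisons on every array of each, and none of these differences was tested. Between the treatments in the same week, MXD minus N-CE at 1W was 0.59 for Mitf, 0.53 for Kit and 0.69 for Ednrb on the log2 scale, 0.44 for the median of the 6 regulators and 2.29 for the median of the melanin list, the last 2 taken as the mean of the array medians. At 3W it was -0.27 for Mitf, which stood at -0.11 in MXD and 0.16 in N-CE. These comparisons share a VC pool in each week.

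Between weeks of MXD, Mitf differed by 0.47 for 1W minus 3W and by 1.03 for 2W minus 3W. Between weeks of N-CE, 1W minus 3W was -0.39 for Mitf, -0.58 for Kit, -1.02 for Pax3, -0.41 for the median of the regulators and -2.18 for the median of the melanin list. For 1W minus 2W it was -1.13 for Pax3 and -2.13 for the median of the melanin list. Each week lies on a slide of its own, so that week and slide cannot be told apart. Groups of 2 arrays were too small to be searched for outlying samples.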

How the results depend on the processing

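The call of Kit, Ednrb, Mitf and Pax3 in MXD 2W rests on 1 pool per group. The number of regulators called in MXD 2W was 4 under 5 alternatives and 3 with normexp and loess, where the log2 fold of Pax3, 0.36, and that of the Ednrb probe that stands for the gene, 0.57, were too small and Ednrb was counted through its other probe, at 0.84. Kitl in MXD 3W was lost (0 called) with normexp and loess and when probes had to be above background in both channels of both arrays. With the fold alone and no P, regulators called were 1 in MXD 1W, 2 in MXD 3W, 3 in N-CE 1W, 2 in N-CE 2W and 2 in N-CE 3W, and probes called were 5645, 11870 and 2858 in MXD at 1W, 2W and 3W and 5567, 3257 and 3632 in N-CE. With normexp and loess 26 probes were called in N-CE 2W and 77 in N-CE 3W, against 49 and 119.

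The median of the regulators with normexp and loess was 0.22 in MXD 1W and 0.47 in MXD 2W. In MXD 1W it was 0.20 with the treated pool in Cy3 alone and 0.19 with probe means, which gave -0.29 in N-CE 1W. The median of the melanin list with normexp and loess was 0.35, 1.00 and 0.36 in MXD at 1W, 2W and 3W and -0.87, 0.35 and 0.29 in N-CE. With the treated pool in Cy5 alone it was 0.56 in MXD 1W and 0.35 in N-CE 2W, and in Cy3 alone 0.53, 1.04 and 0.58 in MXD at 1W, 2W and 3W. No called value of a regulator changed sign. Of 36 values of the regulators, 7 moved by more than the SD of the 2 arrays with normexp and loess, 6 with probe means, 1 with centred arrays and 1 with outlier spots kept. Limma called 0 probes in all 3 fits with a week left out (0), with normexp and loess, with dim probes left out and, in an alternative chosen after seeing the data, without probes of equal value in all weeks, and in the MXD and N-CE fits with the slide as a random block, which was not run for their difference. No paired analysis was possible by replicate number because each group is 1 pool, though the difference MXD minus N-CE was taken within each week. The cause of each shift was not tested.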
